A study of Mus musculus with 6 samples.

Results

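Transcripts of the Fos and Jun genes and of Atf3 were examined in the primary somatosensory (S1) cortex of mice after whisker stimulation (WS) or with no stimulation (NS). The 8 genes were chosen by name as the classical AP-1 genes Fos, Fosb, Fosl1, Fosl2, Jun, Junb and Jund, with Atf3 as a partner of the same protein family. Of these, 7 were found among the 14824 genes of the expression table, and Fosl1 was not listed. Bulk RNA-seq covered 3 NS and 3 WS libraries of wild-type C57B6 mice at postnatal day 21. NS samples were labelled as having no treatment, and WS cortex was taken 90 min after the last of the daily sessions in which whiskers on 1 side were brushed by hand. The study describes NS as the unstimulated side of the same brains, without naming which libraries share an animal. All libraries held the whole tissue, which the labels describe as a mix of neurons, glia and vascular cells.

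AP-1 is a transcription factor made of a pair of basic leucine zipper (bZIP) proteins. Fos proteins cannot pair among themselves and bind DNA with a Jun protein, whereas Jun proteins can also pair with each other or with ATF proteins. In neurons, synaptic activity opens calcium channels and activates kinases that act on factors already bound to the promoters of Fos, Fosb and Junb, so that these immediate early genes are transcribed within minutes and their mRNA is soon degraded. Jund mRNA is known as the steadier form, and Atf3 as a gene of injury and stress.

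The promoters of 3 of these genes are shown because a cAMP response element (CRE) core, TGACG, through which CREB acts, lies before Fos, the member with the largest difference between the groups, and also before Fosb and Junb, whose levels overlapped between them. Each sequence is the 250 bases before the RefSeq transcription start on GRCm38.p6, written 5′ to 3′ on the strand of the gene. Capitals mark the CRE core and, in Fos, the TATA box. The Fos window is chr12:85473640-85473889 on the plus strand, the Fosb window is chr7:19310046-19310295 on the minus strand, and the Junb window is chr8:84978749-84978998 on the minus strand.
Fos: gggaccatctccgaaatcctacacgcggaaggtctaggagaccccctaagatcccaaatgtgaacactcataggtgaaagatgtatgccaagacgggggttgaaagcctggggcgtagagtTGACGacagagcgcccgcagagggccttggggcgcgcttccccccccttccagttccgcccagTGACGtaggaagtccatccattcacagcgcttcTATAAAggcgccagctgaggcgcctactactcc
Fosb: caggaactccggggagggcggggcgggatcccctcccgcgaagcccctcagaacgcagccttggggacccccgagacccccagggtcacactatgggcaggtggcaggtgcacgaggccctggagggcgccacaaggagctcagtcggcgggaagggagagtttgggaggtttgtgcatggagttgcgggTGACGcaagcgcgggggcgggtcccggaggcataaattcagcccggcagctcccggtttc
Junb: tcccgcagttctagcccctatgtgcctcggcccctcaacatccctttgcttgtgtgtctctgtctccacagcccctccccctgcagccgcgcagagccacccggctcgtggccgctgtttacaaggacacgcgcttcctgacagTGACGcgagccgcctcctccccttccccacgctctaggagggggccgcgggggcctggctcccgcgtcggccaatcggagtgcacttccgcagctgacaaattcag

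All 7 listed genes had a RefSeq promoter, and 4 of them held the letters TGACG on either strand, against 17.8% of 32851 mouse promoters. Fos held the core at 2 places, starting 129 and 66 bases before the start. The core started 60 bases before the start of Fosb and 106 bases before that of Junb, and in Atf3 it lay on the other strand between 7 and 3 bases before the start. The windows of Fosl2, Jun and Jund had no match. RefSeq and GENCODE place some starts apart: the Jund window ends well before the GENCODE start of Jund, and those of Fosl2 and Atf3 lie inside the GENCODE span, so these 3 windows do not adjoin the gene starts printed here. By a few bases the Fosb window overlaps the GENCODE span, and the Junb window ends shortly before it. A TATAAA box, searched on the strand of the gene only, was found in Fos alone, 33 to 28 bases before the start, and in 7.59% of all promoters. The full CRE, which contains the core and was searched as TGACGTCA (1.55% of promoters), the AP-1 site TGACTCA (4.46%) and the CArG box bound by serum response factor (1.47%) had no match in any of the 7 windows. These counts describe letters in a short window and do not show which factor was bound.

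The libraries were of like depth, between 15660395 and 17276168 counts over the listed genes, and no pair of libraries was so alike that they could hold the same library. Neuron markers were high and close in all 6 libraries. Their summed levels in CPM, the count relative to the TMM-scaled total of the library, were 8892 to 9107 CPM in NS and 8705 to 8983 CPM in WS. Among 13747 genes tested by edgeR's quasi-likelihood test, 4 rose in WS by more than 1 on the log2 scale at a Benjamini-Hochberg adjusted p under 0.05, and 0 fell by as much. WS replicate 3 had the highest summed levels of the astrocyte and pericyte marker lists, as given beside Fos.

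Among the 7 listed genes, only Fos had a transcript level that separated the groups. Fos encodes the founding Fos protein and is the transcript most often used to mark active neurons. Its level was 18.41, 15.04 and 14.85 CPM in the 3 NS libraries and 25.06, 28.39 and 45.54 CPM in the 3 WS libraries. Every WS library lay above every NS library, and WS replicate 3 lay far above the other two.

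The mean level of Fos was 16.1 ± 2.00 CPM (SD, n = 3) in NS and 33.0 ± 11.0 CPM (SD, n = 3) in WS, a ratio of 2.05. The log2 fold change was 1.03 with a standard error of 0.20 and a 95% interval from 0.61 to 1.46, or from 1.52-fold to 2.75-fold. Between libraries of the same replicate number, WS exceeded NS by 1.36-fold, 1.89-fold and 3.07-fold. All 3 pairs moved the same way, as did 9.82% of all tested genes in the direction of WS. In bulk tissue, more cells with Fos and more Fos per cell cannot be told apart.

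The thresholds of the study's methods ask for both an adjusted p under 0.05 and more than 1 on the log2 scale. With these thresholds in edgeR the count of members called was 0 of the 6 tested, beside 0.0291% of all tested genes called higher and 0.0% called lower. Fos had an adjusted p of 0.416 in edgeR's quasi-likelihood test, where 0.0364% of tested genes were higher at an adjusted p under 0.05 whatever their fold. Yet its unadjusted p there was 2.1e-04, and it was the single member of the 6 with an unadjusted p under 0.05, a level reached by 0.866% of all tested genes in the higher and 0.327% in the lower direction. When edgeR was fitted with replicate number as a block, Fos had an adjusted p of 5.9e-04 at a log2 fold change of 0.997 (SE 0.15). The error in that fit is drawn largely from other genes, so this p does not measure the spread of the Fos pairs, which ran from 1.36-fold to 3.07-fold. Fos passed on p in the blocked fit, as did 0.08% of tested genes in the higher direction, but fell short of the fold threshold, which 0.0436% passed as well. In DESeq2, which the study's methods name beside PoissonDis, Fos had an adjusted p of 7.3e-05 at a log2 fold change of 1.03. It was called on both thresholds there, the count of members called being 1. On both thresholds DESeq2 called 5 of the 13747 tested genes higher and 0 lower, and 0.0582% were higher at an adjusted p under 0.05 whatever their fold. Only 13 of the 13747 genes had a larger log2 fold change than Fos. The exact two-sided permutation test over the libraries gave p = 0.10, the smallest that 3 against 3 allows.

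Without WS replicate 3, where Fos was highest, its log2 fold change was 0.73 with an adjusted p of 0.0607 in edgeR's quasi-likelihood test. Without WS replicate 1, where Fos was closest to the NS libraries, it was 1.20 with an adjusted p of 0.0464 in the same test. In WS replicate 3 the summed level of the 9 astrocyte markers was 5702 CPM, against 4565 to 4907 CPM in NS and 4627 CPM in the lowest WS library. The summed level of the 6 pericyte markers was 311.9 CPM there, against 260.5 to 263.9 CPM in NS and 268.0 CPM in the lowest WS library. All 9 astrocyte and all 6 pericyte markers were detected. None passed p 0.05 in edgeR, and their part in the Fos difference was not tested.

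**Figure D1:**
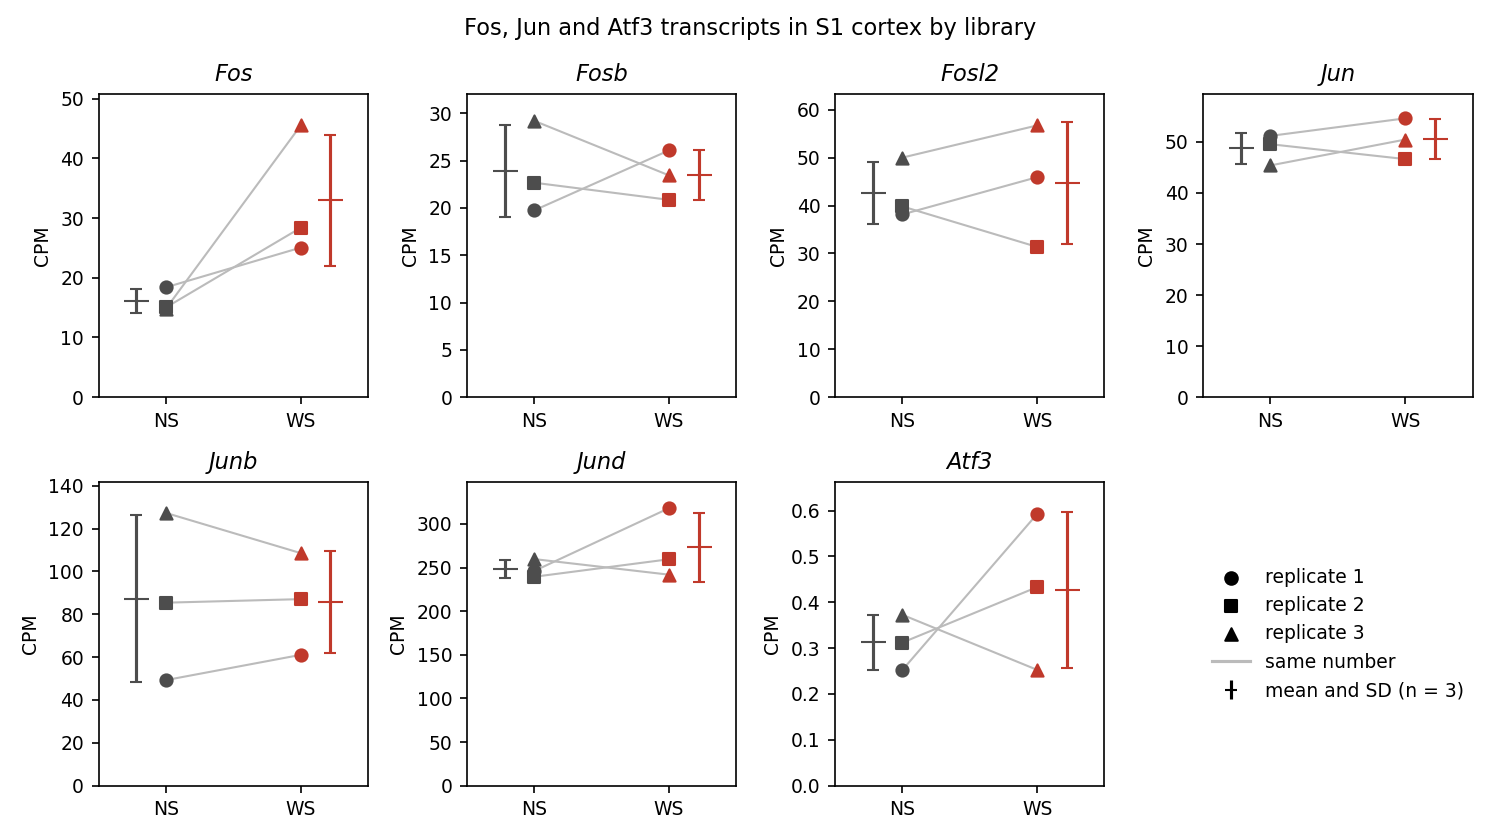
Level of each of the 7 listed genes in CPM on axes that start at 0, with NS libraries in grey and WS libraries in red, the shape giving the replicate number, grey lines joining libraries of the same number and bars giving the mean and SD (n = 3). Fos is the panel in which all WS points, 25.1 to 45.5 CPM, lie above all NS points, 14.9 to 18.4 CPM, and the Junb points run from 49.3 to 127.3 CPM in NS and from 61.1 to 108.6 CPM in WS.

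Fosb, which encodes the second Fos protein and the truncated ΔFosB that builds up after repeated activity, had like levels in both groups. The levels were 19.7, 22.7 and 29.2 CPM in NS and 26.1, 20.8 and 23.4 CPM in WS. The WS values all lay within the range of the NS values. Fosb had a log2 fold change of -0.02 with a 95% interval from -0.34 to 0.29, whose upper bound is a rise of 1.22-fold. The table gives 1 value per gene, so full-length and truncated Fosb were not told apart.

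Fosl2, which encodes the Fos-related protein Fra-2 and lacks the strong activation domain of Fos, also overlapped between the groups. Its levels were 38.1, 39.8 and 50.0 CPM in NS and 45.9, 31.4 and 56.7 CPM in WS. Both the lowest and the highest Fosl2 value of the 6 libraries came from WS. Its log2 fold change was 0.07 with an interval from -0.33 to 0.46.

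Of the Jun genes, Jun varied least over the 6 libraries. Jun encodes c-Jun, the usual partner of Fos. Its levels were 51.2, 49.6 and 45.4 CPM in NS and 54.6, 46.6 and 50.5 CPM in WS, with overlapping groups. Jun had a log2 fold change of 0.05 with an interval from -0.15 to 0.26. Jun reads cannot be separated from those of the antisense gene Junos where these overlap, since it is not stated whether strand was used in counting.

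Jund, which encodes the Jun protein found in most resting cells, was 246.1, 239.4 and 259.7 CPM in NS and 318.0, 259.5 and 241.8 CPM in WS. WS replicate 1 was the highest of the 6 libraries, and the other two WS values lay within the range of NS. For Jund the log2 fold change was 0.14 with an interval from -0.08 to 0.35, and without WS replicate 1 it was 0.01. Jund overlaps the antisense gene Gm11175, whose reads cannot be told from its own.

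Junb, which encodes a Jun protein that is itself induced by activity and can weaken c-Jun on many promoters, had the widest spread of the 7 genes within NS. Its levels were 49.3, 85.4 and 127.3 CPM in NS and 61.1, 87.1 and 108.6 CPM in WS. The WS values lay within the range of the NS values, the highest library exceeded the lowest by 2.58-fold in NS and by 1.78-fold in WS, and in each group replicate 1 was lowest and replicate 3 highest. Junb had a log2 fold change of -0.03 (SE 0.28) with an interval from -0.63 to 0.57. In the blocked fit this was 0.03 (SE 0.11), with an interval from -0.19 to 0.25. Junb overlaps Prdx2 on the other strand.

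Atf3, an early gene of injured neurons, was close to the limit of detection. The counts were 4, 5 and 6 in NS and 10, 7 and 4 in WS, and the groups overlapped. The sums were 15 counts in NS (exact Poisson 95% interval 8.395 to 24.740) and 21 in WS (12.999 to 32.101), intervals that cover counting error only. Atf3 was left out of the main test by the filter on low counts, and without that filter its log2 fold change was 0.45 (SE 0.46). A difference was not detectable at this depth.

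**Figure D2:**
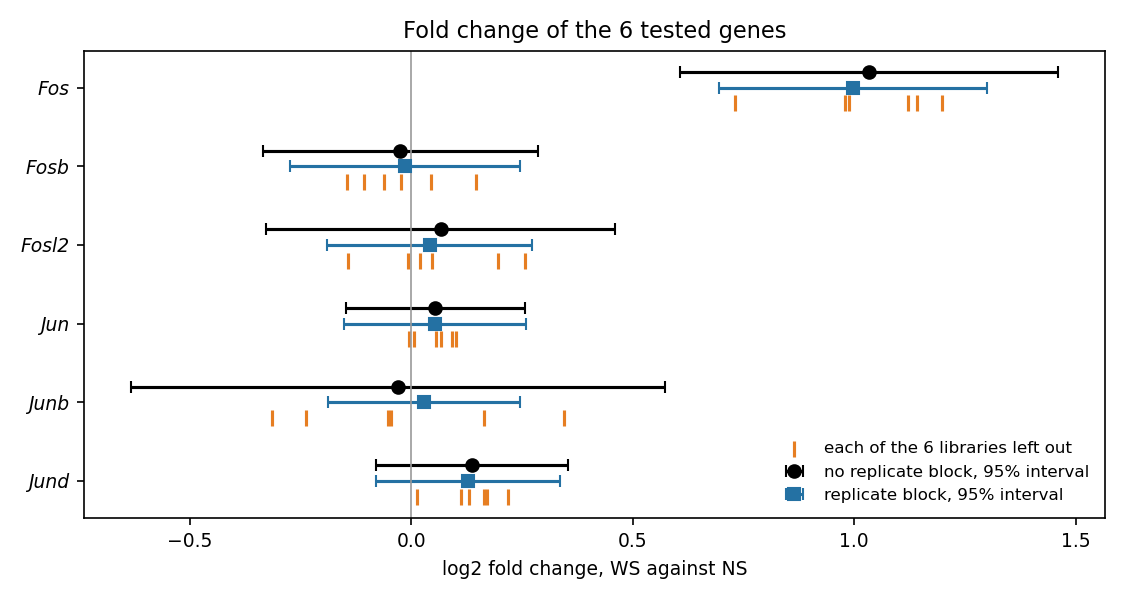
Log2 fold change of WS against NS for the 6 tested genes, with 95% intervals from edgeR without (black) and with (blue) the replicate number as a block, and the values with each of the 6 libraries left out (orange). With a library left out, Fos stays between 0.73 and 1.20, whereas Fosb, Fosl2, Jun and Junb fall on both sides of 0 and Jund stays between 0.01 and 0.22.

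Of the 6 tested members, 1 had every WS library above every NS library, as had 3.11% of all tested genes, and 0 had every WS library below every NS library, as had 3.16%. The interval of the log2 fold change included 0 for the other 5, and all 5 had an adjusted p of 0.9998 in edgeR's quasi-likelihood test. A p of this size does not show that these genes were equal in both groups. The intervals of Fosb, Fosl2, Jun, Junb and Jund ended below the 0.61 at which the interval of Fos began. The median log2 fold change was 0.0074 over all tested genes, with a 95th percentile of 0.26.

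The ratio of Fos to another member within a library does not depend on library scaling. The log2 ratio of Fos to Jun was -1.48, -1.72 and -1.61 in NS and -1.12, -0.72 and -0.15 in WS, so that all WS libraries lay above all NS libraries. The difference between the group means was 0.94 (exact permutation p = 0.10). The same difference was 1.00 against Fosb, 0.96 against Fosl2 and 0.87 against Jund, with no overlap of the groups and an exact permutation p of 0.10 each. Against Junb it was 0.96 with overlapping groups (exact permutation p = 0.20), and against Atf3 it was 0.61 (exact permutation p = 0.60). Without WS replicate 3 the difference was 0.53 against Jund and 0.02 against Atf3, without WS replicate 1 it was 1.07 against Atf3, and without NS replicate 3 it was 0.58 against Junb. These 6 differences share the Fos values, and with Benjamini-Hochberg adjustment over the 6 the exact permutation p was 0.15 for those at 0.10, 0.24 for Junb and 0.60 for Atf3.

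Per length of exon, Jund and Junb were the most abundant of the 7 genes, while Jun and Fos overlapped. Divided by the kilobases of exon that GENCODE gives each gene, the mean level over the 6 libraries was 156 CPM per kb for Jund, 37.6 for Junb, 15.6 for Jun, 10.4 for Fos, 4.51 for Fosl2, 3.79 for Fosb and 0.171 for Atf3. Jund lay above Junb, and Junb above Jun, in all 6 libraries without overlap of their ranges. The overlap of Jun and Fos came about as Fos in WS replicate 3, at 19.4 CPM per kb, exceeded Jun there, and Fosl2 exceeded Fosb in 5 of 6 libraries.

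**Figure D3:**
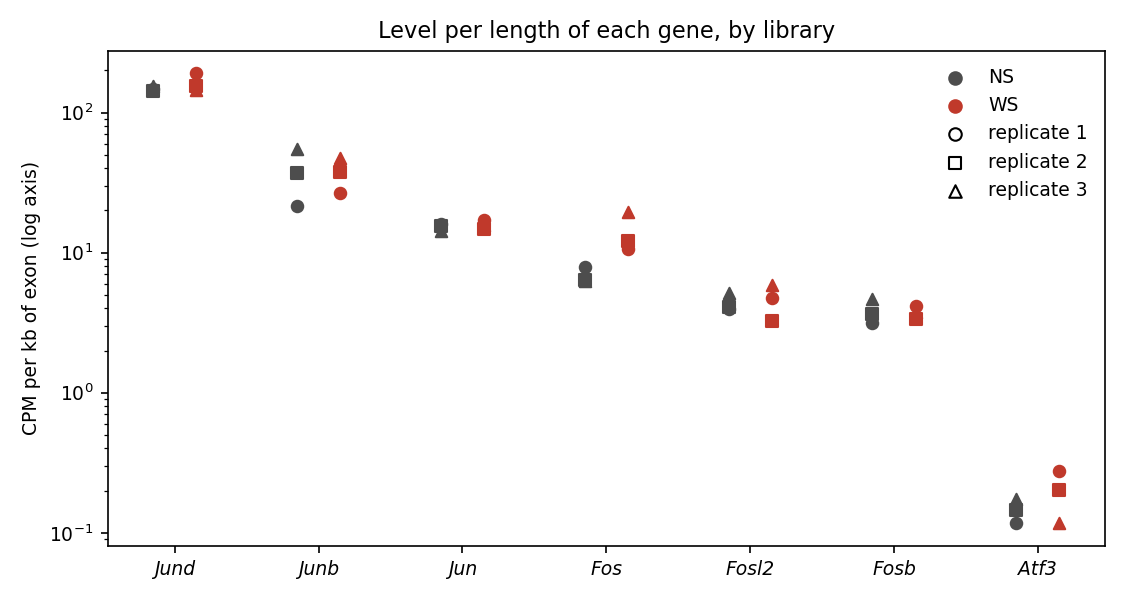
Level per kb of exon on a log axis for the 7 listed genes, ordered by their mean over the 6 libraries, with NS in grey, WS in red and the shape giving the replicate number. Jund lies highest, between 144 and 191 CPM per kb, Atf3 lowest, between 0.117 and 0.275, and Fos is the gene whose WS points are shifted upward, to between 10.7 and 19.4.

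Fos made up a larger share of the Fos family in WS. Of the summed per-kb level of Fos, Fosb and Fosl2, Fos took 52.4%, 45.2% and 39.1% in NS and 54.4%, 64.7% and 66.8% in WS. All WS shares lay above all NS shares, by a narrow margin between NS replicate 1 and WS replicate 1. The summed per-kb level of the Jun genes exceeded that of the Fos genes by 12.4-fold, 13.9-fold and 13.9-fold in NS and by 11.97-fold, 11.2-fold and 7.18-fold in WS. Within the Jun family, Jund took 69.1% to 79.7% in NS and 69.7% to 81.4% in WS.

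Junb, Fos and Fosl2 were among the most variable genes within the groups. The within-group SD of log2 CPM was 0.57 for Junb, 0.34 for Fos and 0.34 for Fosl2, against a median of 0.12 over the 10876 genes that averaged 100 counts or more. The SD was 0.69 in NS and 0.42 in WS for Junb, 0.17 and 0.45 for Fos, and 0.21 and 0.43 for Fosl2, so that of Fos and Fosl2 lay mostly in WS. Only 43 of these genes had a larger SD than Junb, 199 a larger SD than Fos and 211 a larger SD than Fosl2. Fosb had an SD of 0.23, Jund of 0.15 and Jun of 0.10. For Junb, 94.4% of the within-group variance was common to libraries of the same replicate number, against 26.7% for Fos and 47.5% for the median gene. The spread of Junb therefore lay mainly between replicate numbers and that of Fos mainly elsewhere.

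Of 11 other immediate early genes, all tested, Arc and Egr4 had a higher level in WS at an unadjusted p under 0.05, beside 0.866% of all tested genes, and none a lower one, beside 0.327%, and 0 passed an adjusted p of 0.05 in edgeR's quasi-likelihood test. The median log2 fold change of the list was -0.03, but -0.31 without NS replicate 1 and 0.35 without NS replicate 3, so its direction rests on single libraries. In the blocked fit both Arc and Egr4 had an adjusted p under 0.05 in edgeR, 2.2e-06 and 3.0e-05, beside 0.08% of tested genes higher. As for Fos, the error there is drawn largely from other genes and does not measure the spread of the pairs.

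Arc, which encodes a protein of active synapses that controls AMPA receptor uptake, was 123.8, 115.6 and 181.6 CPM in NS and 203.9, 229.4 and 490.4 CPM in WS. Egr4, a zinc finger early gene, was 56.0, 37.8 and 31.2 CPM in NS and 76.7, 96.9 and 107.0 CPM in WS. Both had every WS library above every NS library, with WS replicate 3 highest, like Fos. In log2 fold change this was 1.13 (SE 0.28, adjusted p 0.9998) for Arc and 1.17 (SE 0.18, adjusted p 0.101 in edgeR's quasi-likelihood test) for Egr4.

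Egr1, the early zinc finger gene with the largest counts of the list, was 337.4, 474.8 and 550.1 CPM in NS and 411.9, 428.2 and 517.8 CPM in WS, with a log2 fold change of -0.0047. Npas4, a bHLH-PAS factor specific to neuronal calcium signals, was 16.6, 44.3 and 34.2 CPM in NS and 19.5, 41.1 and 34.4 CPM in WS. Like Junb, Npas4 and Egr1 overlapped between the groups and were lowest in replicate 1 of each group. The share of within-group variance common to same-numbered libraries was 98.3% for Npas4, 98.3% for Nr4a1, 99.4% for Dusp1, 97.9% for Btg2, 95.1% for Egr2, 93.8% for Nr4a2, 93.2% for Ier2, 82.8% for Egr1 and 73.2% for Egr3. Of the early genes with all WS libraries above all NS libraries, Arc had a share of 89.1% and Egr4 of 6.81%, beside 26.7% for Fos. A link between this share and the level in WS was not tested.

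The 5 genes whose log2 CPM followed Fos most closely over the 6 libraries, among 10870 genes compared, were Riok1 (Pearson r = 0.986), Tprkb (0.979), Sparc (0.967), Cwf19l2 (0.965) and Slc16a7 (0.959). These values rest on 6 libraries that are split by treatment, and are given as a description. Slc16a7, the lactate transporter MCT2, rose by 1.46 on the log2 scale with an adjusted p of 0.0142 in edgeR's quasi-likelihood test, whereas Sparc, a matrix protein of glia and vessels, had a log2 fold change of 0.33 that did not pass on adjusted p. The same comparison for Junb, added after its values were seen, led to Ier2 (0.996), Btg2 (0.987), Nr4a1 (0.987), Klf10 (0.986) and Dusp1 (0.985). Of these 5, 4 were on the list of immediate early genes, and none was among the 5 most like Fos.

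**Figure D4:**
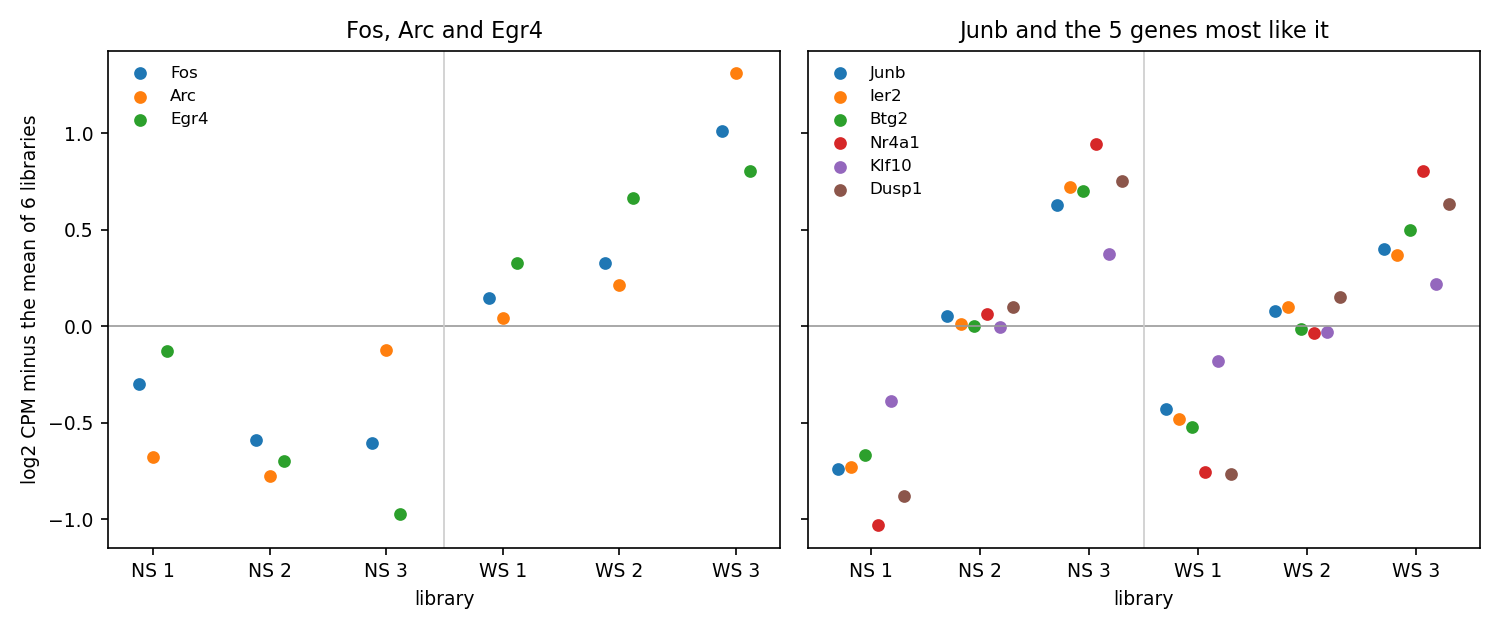
Log2 CPM of each gene minus its mean over the 6 libraries, by library, for Fos, Arc and Egr4 (left) and for Junb with the 5 genes most like it (right), whose likeness is what chose them. On the left all WS points lie above 0 and all NS points below it, and on the right replicate 1 is low and replicate 3 high in NS and WS alike.

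The lists of genes that act on AP-1 or with it held none that passed an unadjusted p of 0.05, a level reached by 0.866% of all tested genes in the higher and 0.327% in the lower direction. In lists this short, a count of 0 is near that background and is no result about them. Of 13 tested bZIP partners among the 15 listed of 16, 0 passed an unadjusted p of 0.05 in either direction, with a median log2 fold change of 0.07, or 0.03 without NS replicate 1 and 0.04 without NS replicate 2. Nfe2l1, a bZIP factor of proteasome genes, had a log2 fold change of 0.03 and Atf2, a Jun partner, of -0.11. Of 15 kinases, again 0 passed, with 13 of 15 values below 0 and a median of -0.05, which became -0.09 when NS replicate 3 was left out and -0.08 when WS replicate 1 was. Mapk10 (JNK3), a kinase of c-Jun in neurons, had a log2 fold change of -0.05.

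Of 15 tested factors at the Fos promoter, the group of CREB, serum response factor and their cofactors, 0 passed, with a median log2 fold change of -0.0077, which was -0.04 without WS replicate 1 and 0.02 without WS replicate 3. Mef2c and Mef2d, activity-dependent factors of neurons, had log2 fold changes of -0.14 and -0.0077. Of 9 genes for the turnover and cofactors of Fos and Jun proteins, 0 passed, among them the ubiquitin ligase gene Fbxw7 at -0.00029 and the corepressor gene Ncor1 at 0.04. Messenger RNA levels leave the phosphorylation and breakdown of these proteins unmeasured.

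Of 22 genes widely described as AP-1 targets, 17 were listed in the table and 16 tested, and 0 passed an unadjusted p of 0.05, beside 0.866% of all tested genes in the higher and 0.327% in the lower direction, so that no result about the targets is read from this count. Their median log2 fold change was 0.03, and ran from -0.04 without WS replicate 1 to 0.08 without WS replicate 3 when single libraries were left out. Vgf, a neuropeptide precursor gene, was 402.9, 416.0 and 409.8 CPM in NS and 483.7, 424.5 and 352.4 CPM in WS. Scg2, the gene of secretogranin, had a log2 fold change of 0.0017 (SE 0.08). The collagenase and cytokine genes Mmp3, Mmp10, Mmp13, Il6 and Ccl2 were not listed in the table.

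**Figure D5:**
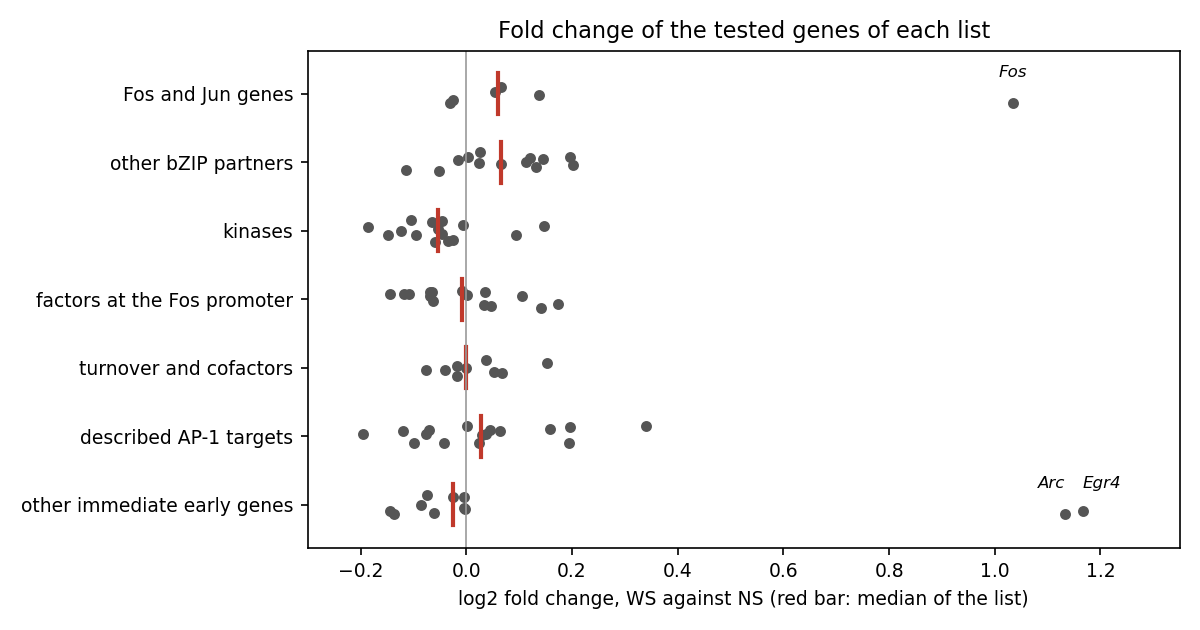
Log2 fold change of WS against NS for each tested gene of 7 lists, 1 point per gene, spread vertically only to separate points, with a red bar at the median of the list. Fos, Arc and Egr4 lie at 1.03, 1.13 and 1.17, and the medians of all 7 lists lie between -0.05 and 0.07.

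The other marker lists were compared beside these results. Summed oligodendrocyte markers ranged from 8051 to 11608 CPM in NS and from 9558 to 12841 CPM in WS, and summed microglia markers from 452.7 to 474.0 and from 479.4 to 491.5 CPM, the latter without overlap of the groups. Heat shock genes, which rise with handling, ranged from 1470 to 1587 and from 1473 to 1518 CPM. Endothelial markers ranged from 193.8 to 217.3 and from 204.9 to 231.5 CPM, hemoglobin and other blood genes from 421.6 to 766.4 and from 500.9 to 634.0 CPM, and choroid plexus genes, of which Ttr was not listed, from 33.3 to 79.2 and from 10.2 to 93.5 CPM. Striatal neuron markers were highest in WS replicate 2, at 623.0 CPM, against 306.6 to 424.9 CPM elsewhere. All other markers of these lists were listed, and no marker of any list passed an unadjusted p of 0.05 in edgeR without the block. In the blocked fit 4 oligodendrocyte, 1 striatal and 1 choroid plexus marker had an unadjusted p under 0.05, and 0 an adjusted one. The part of these differences in the levels of the Fos and Jun genes was not tested.

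The genes are placed on GRCm38 as GENCODE M21 gives them. Fos (ENSMUSG00000021250) spans chr12:85473890-85477273 on the plus strand, Fosb (ENSMUSG00000003545) chr7:19302696-19310051 on the minus strand and Fosl2 (ENSMUSG00000029135) chr5:32135801-32157842 on the plus strand. Jun (ENSMUSG00000052684) spans chr4:95049034-95052222 on the minus strand, Junb (ENSMUSG00000052837) chr8:84974484-84978718 on the minus strand and Jund (ENSMUSG00000071076) chr8:70698949-70700616 on the plus strand. Atf3 (ENSMUSG00000026628) spans chr1:191170296-191218039 on the minus strand.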

How the data were processed

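RNA from S1 cortex of 3 NS and 3 WS samples was sequenced on a DNBseq instrument. Reads from rRNA or of low quality were discarded by the authors before alignment with HISAT2. The submitters' processing notes name mm10, and the counting tool is not given in the sources used here. The authors deposited, per gene, the mean over libraries as an estimated count, its SD as a score in counts, and a z-score per library. Deposited fold changes, p-values and FDR values hold the authors' own comparisons and were not used. The column of WS replicate 3 carries an extra letter in its name, and was assigned to it since the WS mean of the authors includes it.

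The design was written for counts or normalized values. Since z-scores were deposited, counts were computed back as mean plus z-score times SD and rounded. The check used the 13418 of 14824 genes where rounding of the deposited figures leaves an error under 0.1 count. There 88.5% of values were whole within that error, and the rest were rounded all the same. Only 1 value was under 0.5 count. Counts were scaled by TMM and filtered with filterByExpr, and the groups were compared by edgeR 4.0.16 (quasi-likelihood F test, all 6 libraries, no block, R 4.3.3) with Benjamini-Hochberg adjustment over 13747 genes. DESeq2 1.42.0, no filter, other scalings, a replicate block and leaving out each library were alternatives. The code was tested on simulated data. Single values were compared by exact permutation (SciPy 1.17.1, two-sided). The totals per library, 15660395 to 17276168 counts, give the depth, and low counts carry the largest counting error.

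The members and lists were chosen with earlier results of these data known. Named were all listed members, list genes with an unadjusted p under 0.05 or otherwise the 2 with the largest counts per list, and the 5 genes most correlated with Fos; 1 kinase that this rule names is not reported here. The values of Egr2, Npas4, Nr4a1, Nr4a2, Ier2, Dusp1, Btg2 and Klf10 were named after being seen, as was the list like Junb. Replicate numbers come from the labels. The study gives the unstimulated side as control, and a caption of its RNA-seq heatmap gives 3 male mice. It does not name which libraries share an animal. Deviations of same-numbered libraries from their group means correlated with r = 0.342, 0.228 and 0.124 across tested genes, all above 0.1, so the numbers were taken as pairs; over genes with at least 100 counts, a choice made after seeing the data, the third was 0.0677. It is not stated for each library that it came from a separate animal, so p-values measure only the spread between these samples. The main fit had no block and so did not use the pairs. Positions and exon lengths came from GENCODE M21, and promoters from RefSeq on GRCm38.p6, where 7 of 7 listed members matched.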

Additional observations from a re-analysis of the deposited data

How the results depend on the processing

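The 0 members called became 1, Fos, with DESeq2 (log2 fold change 1.03) and without WS replicate 1, a range of 0 to 1 when each library was left out. Over all genes the same rule called 5 higher with DESeq2 and 6 higher without WS replicate 1, and 0 lower in either. The log2 fold change of Fos ranged from 0.73 to 1.20 without single libraries, and its adjusted p was under 0.05 in 3 of 13 alternatives. Of all genes, the 4 higher in WS ranged from 0 (without NS replicate 2 or NS replicate 3) to 6, and the 0 lower from 0 to 1 (1 without WS replicate 3). The pathway genes at an unadjusted p under 0.05 ranged from 2 to 4 higher and from 0 to 3 lower, with the 4 and the 3 reached without WS replicate 3. The direction of 4 members turned when single libraries were left out. The log2 fold change then ranged from -0.14 to 0.15 for Fosb, from -0.14 to 0.26 for Fosl2, from -0.0044 to 0.10 for Jun and from -0.31 to 0.34 for Junb. With the replicate block, Junb was at 0.0288 and the genes higher in WS numbered 6. The block left the members called at 0, since Fos passed on adjusted p but not on fold, and among the pathway genes only Arc and Egr4 passed on adjusted p with it. The cause of these changes was not tested. Atf3, with 4 to 10 counts per library, was too shallow for a comparison, and with 3 samples per group no exact permutation test could go below 0.10.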
